A study of Mus musculus with 20 samples.

Results

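The genes described here are 10 genes of inositol phosphate metabolism and of related phosphatases, measured in mural granulosa cells (GCs) of mice among 55487 genes in the count files. They were picked by name. Of the 10, 6 are named in the study for a line difference in estrus (Isyna1, Inpp5b, Pik3c2g, Ppp1r14a, Dusp23 and Sgpp2) and 2 for one in diestrus (Inpp5d and Dusp23), which makes 7 genes in all, while 3 (Impa1, Impa2 and Itpk1) are not named there. All 10 symbols matched 1 Ensembl gene each.

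GCs are the somatic cells that line the ovarian follicle. They came from 20 female mice, 1 sample per mouse and 5 mice in each of 4 groups, with no treatment named for any group: ctrl mice in estrus, ctrl mice in diestrus, FL1 mice in estrus and FL1 mice in diestrus. FL1 is the Dummerstorf line bred over many generations for large litters, and ctrl is an unselected line from the same founder population, so the 2 lines differ at many loci and not in 1 allele. The mice were 77 ± 5 days old, their stage was read from vaginal smears, and 7 to 10 of the largest follicles per mouse were opened so that the oocyte and its cumulus cells stayed behind. Each sample is therefore a pool of follicles from 1 mouse.

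myo-Inositol is a sugar alcohol that cells take up or make from glucose phosphate. It is the head group of phosphatidylinositol. Kinases add phosphates to this lipid, phospholipase C cuts it to release inositol trisphosphate, which opens calcium stores through its receptor, and phosphatases take the phosphates off again and return free inositol. In GCs this pathway carries part of the signals of hormone receptors and of growth factors, and protein phosphatases and lipid phosphatases end many of these signals.

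Libraries were made from the 3′ ends of polyadenylated RNA, so that CPM (the reads on a gene scaled to a library of fixed size) do not scale with transcript length and the levels of different genes can be set side by side with care. Between 5446576 and 8257041 reads per mouse lay on genes, with a median of 6457585.5, and these were 48.9% to 58.4% of all reads in a file. All 10 markers of GCs, Fshr, Cyp19a1 and Foxl2 among them, had counts in every group, and their summed level was between 5951 and 15420 CPM. Genes used as markers of other cells were present too. The highest summed level in any mouse was 4109 CPM for luteal cells, 1620.5 CPM for red blood cells, 1229 CPM for smooth muscle cells and pericytes, 1208 CPM for fibroblasts, 493 CPM for the oocyte, 328 CPM for theca cells, 131 CPM for endothelial cells, 76.8 CPM for the surface epithelium and 72.9 CPM for leukocytes and macrophages. The luteal list holds Ptgfr, Akr1c18, Lhcgr and Prlr, which the study also reports in its GCs, so this sum cannot be assigned to luteal cells alone. In such bulk samples fewer cells of a type and less RNA per cell cannot be told apart.

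For Isyna1, Ppp1r14a, Dusp23 and Sgpp2, 4 members on which the results below turn and which were picked after their values were seen, the bases just before the transcription start are shown so that these genes can be recognized in the genome. Pik3c2g is not among them because its RefSeq windows lie within the GENCODE gene. They come from RefSeq on GRCm38.p6, are written 5′ to 3′ along the strand of the gene, and stop before the first base that GENCODE M21 assigns to the gene. Capitals mark on either strand the motif GGGCGG, the motif CCAAT, the motif TGACG and the motif CACGTG, out of 7 motifs searched in the 250 bases before the RefSeq start.
Isyna1: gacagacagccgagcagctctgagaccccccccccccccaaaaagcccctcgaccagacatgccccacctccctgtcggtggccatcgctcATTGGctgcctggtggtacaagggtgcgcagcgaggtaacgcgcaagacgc
Ppp1r14a: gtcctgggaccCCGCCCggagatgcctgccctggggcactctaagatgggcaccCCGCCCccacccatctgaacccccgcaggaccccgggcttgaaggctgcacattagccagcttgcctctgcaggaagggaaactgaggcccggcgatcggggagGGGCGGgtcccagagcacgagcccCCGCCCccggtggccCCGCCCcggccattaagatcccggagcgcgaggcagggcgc
Dusp23: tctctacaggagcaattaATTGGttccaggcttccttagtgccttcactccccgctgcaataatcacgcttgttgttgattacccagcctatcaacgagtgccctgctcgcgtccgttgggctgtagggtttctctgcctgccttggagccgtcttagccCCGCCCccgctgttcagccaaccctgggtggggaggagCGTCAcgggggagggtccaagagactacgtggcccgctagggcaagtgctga
Sgpp2: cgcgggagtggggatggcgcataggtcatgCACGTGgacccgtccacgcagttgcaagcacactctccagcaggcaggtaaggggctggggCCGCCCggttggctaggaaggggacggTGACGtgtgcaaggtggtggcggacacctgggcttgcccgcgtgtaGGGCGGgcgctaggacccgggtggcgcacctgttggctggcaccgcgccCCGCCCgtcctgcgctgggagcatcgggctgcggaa

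The run for Isyna1 lies at chr8:70594231-70594372 on the plus strand, that for Ppp1r14a at chr7:29289070-29289307 on the plus strand, that for Dusp23 at chr1:172632975-172633224 on the minus strand and that for Sgpp2 at chr1:78310096-78310344 on the plus strand. Ppp1r14a has 5 matches to GGGCGG and no other match. Sgpp2 has 3 matches to GGGCGG, 1 to TGACG and 1 to CACGTG. Dusp23 has 1 match to CCAAT, 1 to GGGCGG and 1 to TGACG, and Isyna1 has 1 match to CCAAT only. Among 32851 promoter windows of the same length, GGGCGG is found in 32.7%, CCAAT in 33.8%, TGACG in 17.8% and CACGTG in 6.02%. The motif TATAAA (12.4% of windows), the motif AAGGTCA (4.08%) and the motif TGANTCA (6.75%) had no match in these 4 windows. The matches are a description of the letters only.

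The members covered a wide range of levels. Averaged over the 20 mice, Isyna1 had 219.7 CPM and was the strongest expressed, followed by Impa1 (67.3 CPM), Sgpp2 (38.3 CPM), Inpp5b (37.7 CPM), Pik3c2g (31.8 CPM) and Ppp1r14a (24.9 CPM). Itpk1 (13.6 CPM), Dusp23 (12.8 CPM) and Impa2 (11.3 CPM) were lower, and Inpp5d (2.28 CPM) had no reads in several mice. No near-identical copy of any member was found elsewhere in the transcriptome.

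The first comparison asks how the members differ between diestrus and estrus in the unselected ctrl line. Isyna1 fell in diestrus, and it was the only member called at an adjusted p of 0.05 or less by edgeR's quasi-likelihood test over all genes. Of the 9 members in this fit 1 was called, beside 1.36% of the 12850 genes tested (0.576% lower in diestrus). All 9 members had a log2 fold change below 0, with a median of −0.58, whereas 49.6% of all genes tested lay below 0 and the median of all genes was 0.004. The 5 ctrl mice in estrus also entered the line comparison that chose 6 of the members, so the stage differences of these 6 reuse in part the values they were chosen on. The same holds for Inpp5d and Dusp23 with the ctrl mice in diestrus.

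Isyna1 (ENSMUSG00000019139, chromosome 8, 70594373 to 70597290, plus strand) encodes inositol-3-phosphate synthase, which makes inositol phosphate from glucose phosphate and is the rate-limiting step of inositol synthesis. The 5 ctrl mice in estrus had 402, 520.4, 448, 387 and 368 CPM, and the 5 in diestrus 167, 140.1, 129, 76.5 and 126 CPM. Every estrus sample lay above every diestrus sample, which was the case in this direction for 1.84% of the genes tested. The mean was 425 ± 61.0 CPM in estrus and 128 ± 33.0 CPM in diestrus (SD, n = 5 each). This was 3.34-fold lower, −1.74 on the log2 scale with a standard error (SE) of 0.21, and edgeR gave an adjusted p of 5.63e-04. With 1 of the 10 mice left out at a time, all 10 fits called Isyna1, with log2 fold changes between −1.85 and −1.60. In the same ctrl mice the summed level of 5 fibroblast markers was 429.97 to 985 CPM in estrus and 67.1 to 425 CPM in diestrus, without overlap, and that of 10 GC markers was 6566 to 10497 CPM in estrus and 8712 to 15420 CPM in diestrus. Their part in the result was not tested.

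Impa1 (ENSMUSG00000027531, chromosome 3, 10311956 to 10331439, minus strand) and Impa2 (ENSMUSG00000024525, chromosome 18, 67289186 to 67322472, plus strand) encode the inositol monophosphatases, which free inositol from its last phosphate and are blocked by lithium. Impa1 had 51.2 to 97.7 CPM in ctrl mice in estrus and 33.1 to 99.5 CPM in diestrus, with a log2 fold change of −0.18 (SE 0.27). Impa2 had 8.54 to 20.1 CPM in estrus and 6.54 to 16.8 CPM in diestrus, with a log2 fold change of −0.58 (SE 0.46). Their ranges overlapped between the stages, and neither passed the test (adjusted p = 0.887 and 0.723 from edgeR). Impa1 held 81.5% ± 7.43 of the reads of this gene pair in ctrl mice in estrus, 85.7% ± 1.505 in ctrl mice in diestrus, 86.2% ± 5.10 in FL1 mice in estrus and 88.4% ± 5.14 in FL1 mice in diestrus (SD, n = 5 each). Impa1 overlaps Gm38303 on its own strand and Impa2 overlaps B430212C06Rik on the other strand, so that reads could be shared.

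Itpk1 (ENSMUSG00000057963, chromosome 12, 102568582 to 102704930, minus strand) encodes a kinase that adds phosphates to inositol trisphosphate and inositol tetrakisphosphate. It had 8.59 to 22.9 CPM in ctrl mice in estrus and 4.80 to 15.1 CPM in diestrus (log2 fold change −0.26 with SE 0.49, edgeR adjusted p = 0.917). The ranges of the stages overlapped, and without ctrl estrus replicate 1 the log2 fold change was 0.03. Itpk1 overlaps Gm28373, Gm37019 and Mir1936 on its strand and Gm20069 on the other.

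Inpp5b and Inpp5d encode phosphatases that remove the phosphate at position 5 from inositol phosphates and inositol lipids. Inpp5b (ENSMUSG00000028894, chromosome 4, 124741850 to 124801511, plus strand) had 53.9, 63.6, 64.9, 71.6 and 47.4 CPM in ctrl mice in estrus and 33.9, 40.8, 25.4, 26.5 and 48.7 CPM in diestrus. Only diestrus replicate 5 reached into the range of the estrus samples. The log2 fold change was −0.79 with an SE of 0.24, which did not pass over all genes (adjusted p = 0.150 from edgeR). The alternatives to this fit gave adjusted p-values between 0.0534 and 0.291. Inpp5b overlaps Mir698 on its strand and Gm12915 on the other.

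Inpp5d (ENSMUSG00000026288, chromosome 1, 87620312 to 87720507, plus strand), known as SHIP1 and mainly studied in blood cells, was close to the limit of detection. In ctrl mice in estrus its counts were 0, 0, 16, 41 and 9 reads, and in ctrl mice in diestrus 0, 0, 1, 0 and 0 reads. Both groups held samples without reads and thus overlapped. It was removed by the filter on low counts in this comparison. An exact two-sided permutation test on log2 CPM gave a difference of −1.87, diestrus minus estrus, with p = 0.167 (n = 5 each), where the smallest p this design can give is 0.00794. The low diestrus counts in this test are among the values on which Inpp5d was chosen. Without ctrl estrus replicate 1 or replicate 2, both without reads, the exact p was 0.0476. As every diestrus sample had 3 counts or fewer, the mean in estrus was at least 4.13-fold higher than 3 counts per library in diestrus. This bound rests on ctrl estrus replicate 4 (6.04 CPM), without which it was 1.86-fold. It also rests on the low diestrus counts on which Inpp5d was chosen. The summed level of 10 leukocyte and macrophage markers was 18.1 to 39.0 CPM in ctrl mice in estrus and 1.61 to 18.7 CPM in diestrus, and its part in the result was not tested.

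The lipid kinase gene Pik3c2g (ENSMUSG00000030228, chromosome 6, 139587221 to 139969284, plus strand) encodes a class II phosphatidylinositol kinase. It had 1.89, 8.37, 31.1, 15.8 and 19.2 CPM in ctrl mice in estrus and 2.50, 15.1, 7.74, 1.27 and 7.89 CPM in diestrus. The samples of the stages overlapped widely (log2 fold change −1.15 with SE 0.72, edgeR adjusted p = 0.627). It overlaps Gm37269 and Gm43940 on its own strand.

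Among the phosphatase genes, Sgpp2 (ENSMUSG00000032908, chromosome 1, 78310345 to 78420289, plus strand) encodes a phosphatase that removes the phosphate of sphingosine phosphate. It had 63.1, 87.9, 66.7, 105.3 and 43.6 CPM in ctrl mice in estrus and 7.49, 40.1, 43.2, 50.2 and 59.4 CPM in diestrus. Estrus replicate 5 lay among the diestrus samples and the difference was not called (log2 fold change −0.88 with SE 0.39, edgeR adjusted p = 0.374). Sgpp2 shares its strand with the overlapping Gm37884, and Gm28410 and Farsb overlap it from the other strand.

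Ppp1r14a (ENSMUSG00000037166, chromosome 7, 29289308 to 29293801, plus strand) encodes an inhibitor of protein phosphatase 1 that is well known from smooth muscle. It was low in both stages of the ctrl line, with 4.81 to 13.0 CPM in estrus and 1.47 to 13.5 CPM in diestrus (log2 fold change −0.14 with SE 0.67, edgeR adjusted p = 0.973). Dusp23 (ENSMUSG00000026544, chromosome 1, 172630764 to 172632962, minus strand) encodes a small dual specificity phosphatase. It had 1.09 to 6.41 CPM in estrus and 0.363 to 5.89 CPM in diestrus (log2 fold change −0.58 with SE 1.07, edgeR adjusted p = 0.915). For both genes the ranges of the stages overlapped, though for Dusp23 3 diestrus mice lay below all estrus mice.

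**Figure D1:**
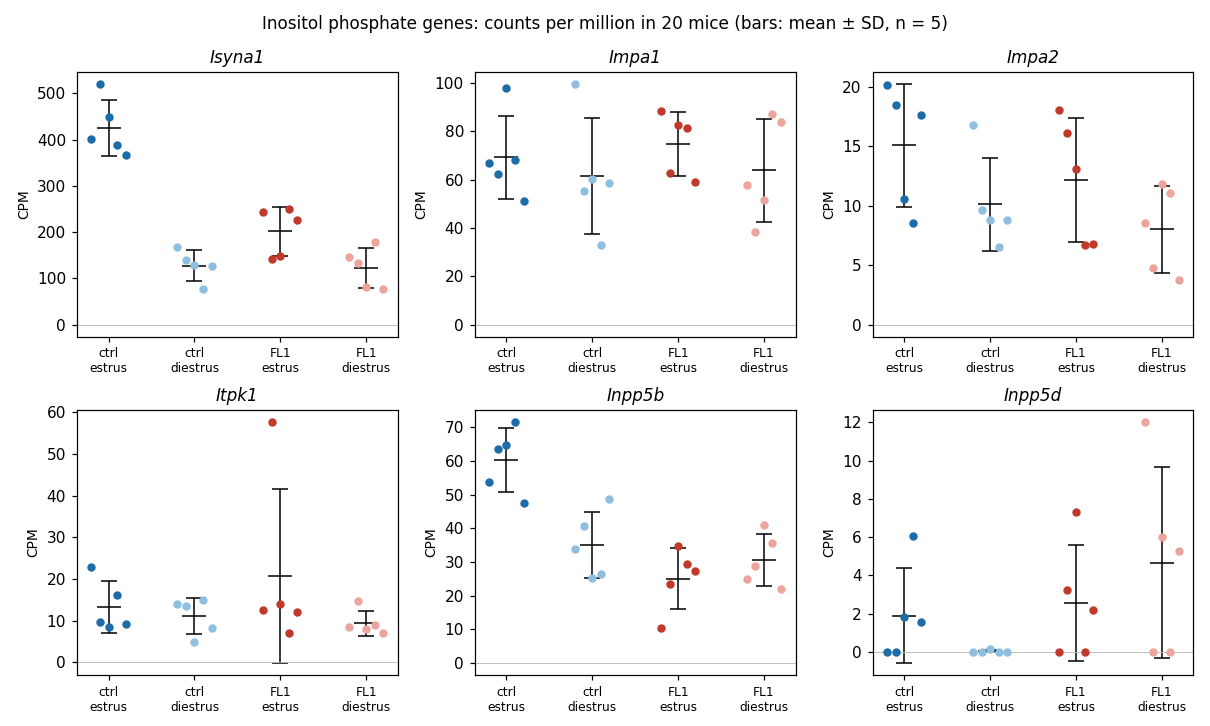
CPM of the 6 inositol phosphate genes in the 20 mice, 1 panel per gene, with 1 point per mouse (replicates 1 to 5 from left to right within a group) and bars for mean ± SD (n = 5). Isyna1 in ctrl mice in estrus lies at 368 CPM or more in every mouse and at 249.8 CPM or less in all mice of the other groups, and Itpk1 has 1 high value of 57.7 CPM in FL1 estrus replicate 2.

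The next comparison makes the same contrast of diestrus with estrus in the FL1 line. By edgeR 0 of the 10 members were called, beside 0.221% of the 13114 genes tested, and 6 members had an unadjusted p under 0.05, beside 9.48% of all genes. DESeq2 called 1 of the members, Ppp1r14a, and 265 genes in all, where edgeR called 29. The log2 fold change was below 0 for 7 members, beside 48.9% of all genes, and above 0 for 3 (Inpp5b, Inpp5d and Sgpp2). The median was −0.67, and 0.01 over all genes. The FL1 mice in estrus are among those that chose 6 of the members, and those in diestrus among those that chose Inpp5d and Dusp23.

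Ppp1r14a came nearest to the threshold. The 5 FL1 mice in estrus had 67.5, 206, 20.1, 39.2 and 29.7 CPM, and the 5 in diestrus 21.4, 10.1, 3.24, 6.48 and 11.3 CPM. Only diestrus replicate 1 lay above the lowest estrus sample, and estrus replicate 2 stood 3 times as high as the next mouse. The mean was 72.6 ± 76.9 CPM in estrus and 10.5 ± 6.85 CPM in diestrus (SD, n = 5 each). The log2 fold change was −2.79 with an SE of 0.59 and an edgeR adjusted p of 0.0596. Over the alternatives the adjusted p lay between 1.45e-07 and 0.175, and 7 of 16 called the gene. Without estrus replicate 2 the log2 fold change was −1.91 and the adjusted p 0.175, and without diestrus replicate 1 they were −3.23 and 0.0138. The summed level of 6 smooth muscle and pericyte markers was 494 to 1217 CPM in FL1 mice in estrus, where replicate 2 was the lowest, and 69.2 to 1229 CPM in diestrus. That of 4 luteal markers (Ptgfr, Akr1c18, Lhcgr and Prlr) was 1328 to 4109 CPM in estrus, with a median of 2783 CPM, and 357 to 2074 CPM in diestrus, with a median of 767 CPM, and that of 5 fibroblast markers 619 to 1208 CPM and 97.3 to 817 CPM. Surface epithelium markers summed to 23.7 to 76.8 CPM in estrus and 6.32 to 39.8 CPM in diestrus, while the medians of GC, theca, oocyte and red blood cell markers were higher in diestrus. The same mice gave the values of Pik3c2g and Dusp23 that follow, and the part of these markers in the results was not tested.

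Pik3c2g followed a like order. The FL1 mice had 62.0, 195, 81.5, 63.0 and 35.8 CPM in estrus and 18.4, 40.3, 16.2, 13.1 and 0.512 CPM in diestrus. Again 1 diestrus sample, replicate 2, lay above the lowest estrus sample and estrus replicate 2 was the highest. The log2 fold change was −2.30 with an SE of 0.62, and the adjusted p of 0.137 from edgeR did not pass. Without estrus replicate 2 it was −1.79 with an edgeR adjusted p of 0.368. Over the alternatives, from edgeR or DESeq2, the adjusted p lay between 8.38e-06 and 0.368, and 2 of 16 called the gene.

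Dusp23 was the only member without overlap of the stages in FL1 mice. It had 36.9, 25.5, 33.5, 32.1 and 21.9 CPM in estrus and 14.7, 11.2, 9.88, 17.9 and 21.7 CPM in diestrus. Every estrus sample lay above every diestrus sample, by a narrow margin, and 1.32% of the genes tested were separated in this direction. The means were 29.97 ± 6.14 and 15.1 ± 4.83 CPM (SD, n = 5 each). The difference, −1.01 on the log2 scale with an SE of 0.33, was not called (edgeR adjusted p = 0.243).

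Isyna1 had 244, 141, 149, 249.8 and 227 CPM in FL1 mice in estrus and 146, 132, 81.3, 179 and 78.3 CPM in diestrus. Replicates 2 and 3 of the estrus group lay within the range of the diestrus group. The log2 fold change of −0.72 (SE 0.26) was not called (adjusted p = 0.323 from edgeR). Sgpp2 had 21.0, 14.5, 9.35, 2.39 and 18.7 CPM in estrus and 20.9, 36.3, 15.9, 37.0 and 23.5 CPM in diestrus, so that 3 diestrus samples lay above all estrus samples. Its log2 fold change was 1.01 with an SE of 0.47 and an edgeR adjusted p of 0.513.

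The other members overlapped between the stages of the FL1 line. Inpp5b had 10.5 to 34.8 CPM in estrus and 22.00 to 41.0 CPM in diestrus, with a log2 fold change of 0.27 (SE 0.33). Impa1 (58.8 to 88.5 CPM in estrus and 38.5 to 87.2 CPM in diestrus) and Impa2 (6.74 to 18.05 CPM and 3.75 to 11.8 CPM) had log2 fold changes of −0.24 and −0.61. Itpk1 had 12.6, 57.7, 14.03, 7.16 and 12.04 CPM in estrus and 6.99 to 14.7 CPM in diestrus. Its log2 fold change was −1.14 with all mice and −0.30 without estrus replicate 2 (adjusted p = 0.510 and 0.950 from edgeR). Inpp5d had 0, 26, 47, 0 and 13 reads in estrus and 77, 0, 37, 0 and 31 reads in diestrus, with a log2 fold change of 0.85 and a standard error of 1.45.

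**Figure D2:**
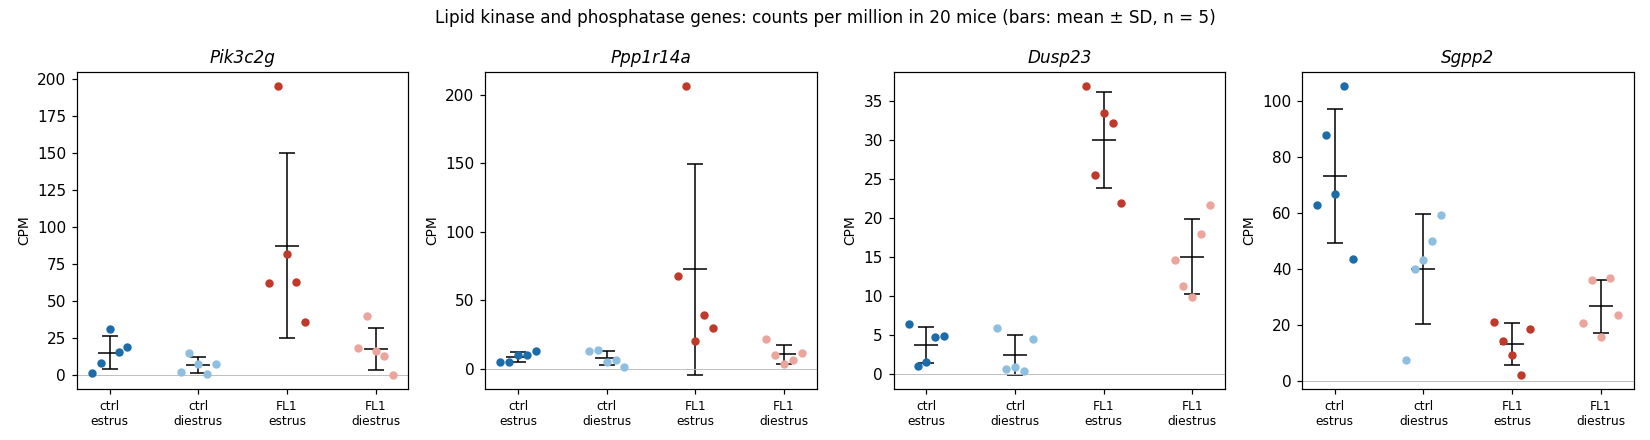
CPM of the lipid kinase gene Pik3c2g, the phosphatase inhibitor gene Ppp1r14a and the phosphatase genes Dusp23 and Sgpp2 in the 20 mice. Each point is 1 mouse (replicates 1 to 5 from left to right within a group), and bars show mean ± SD (n = 5). In FL1 mice in estrus, replicate 2 is the highest point of Pik3c2g (195 CPM) and of Ppp1r14a (206 CPM), and Dusp23 lies between 9.88 and 36.9 CPM in all FL1 mice and at 6.41 CPM or less in all ctrl mice.

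**Figure D3:**
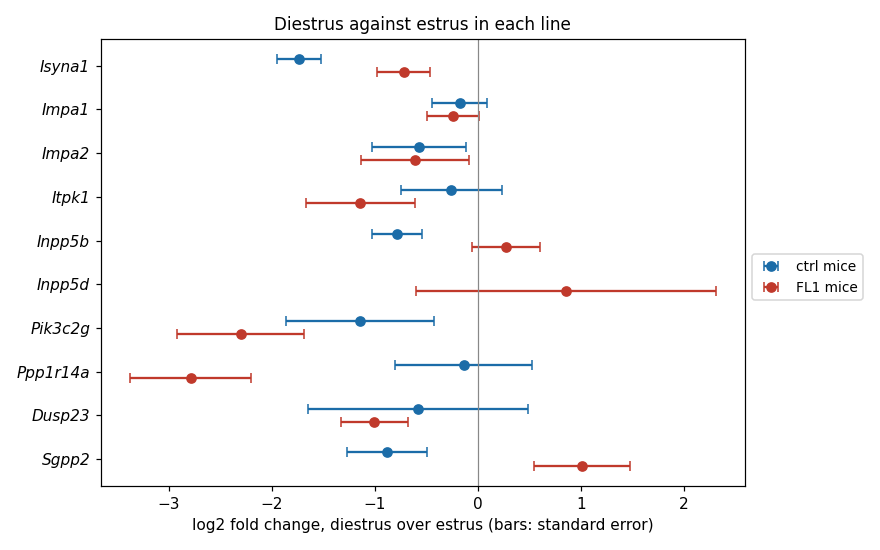
Log2 fold changes of diestrus over estrus (horizontal axis) for each member in ctrl mice (blue) and FL1 mice (red), with bars for the standard error, and 5 mice per group. Isyna1 lies at −1.74 in ctrl mice and −0.72 in FL1 mice, Ppp1r14a at −0.14 and −2.79, and Inpp5d has no value in ctrl mice because its counts were too low for the fit.

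Whether the stage difference is unequal in the 2 lines was tested as the interaction of line and stage over all 20 mice. By edgeR 0 of the 10 members and 0 of the 14938 genes tested were called (0%), while 5 members and 4.75% of all genes had an unadjusted p under 0.05. DESeq2 called 0 members and 1 gene. The values of these 5 members were 1.02 for Isyna1 (standard error 0.34), 1.06 for Inpp5b (0.40), 1.89 for Sgpp2 (0.62), −2.65 for Ppp1r14a (0.83) and 6.19 for Inpp5d (2.50), each as the log2 fold change of diestrus over estrus in FL1 minus that in ctrl. Their adjusted p-values from edgeR were between 0.933 and 0.988. The value of Inpp5d rests on a group with 1 read in all and depends on the prior count. The line difference in estrus, by which 6 members were chosen, is part of this contrast. So is the line difference in diestrus, by which Inpp5d and Dusp23 were chosen. The stage differences of the members were thus not shown to differ between the lines.

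Of the members compared between the lines in diestrus, 5 (Isyna1, Inpp5b, Pik3c2g, Ppp1r14a and Sgpp2) were named on other mice, those in estrus. A further 3 (Impa1, Impa2 and Itpk1) are not named in the study. Left out are Dusp23 and Inpp5d, which the study names for a line difference in these same diestrus mice. The rest are thus genes that it does not name for diestrus, so a low count of calls follows in part from this split. Of these 8 members, edgeR called 0, beside 0.248% of the 12886 genes tested, and 0 had an unadjusted p under 0.05 (5.56% of all genes). DESeq2 also called 0 of them, and 118 genes in all. All 8 adjusted p-values from edgeR were 0.999782.

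Isyna1 had nearly the same mean in both lines in diestrus, 123 ± 43.2 CPM in FL1 mice and 128 ± 33.0 CPM in ctrl mice (SD, n = 5 each). The log2 fold change was −0.04 with an SE of 0.26. In estrus the FL1 mice had 202 ± 52.9 CPM and the ctrl mice 425 ± 61.0 CPM. Inpp5b had 30.5 ± 7.76 CPM in FL1 mice and 35.1 ± 9.83 CPM in ctrl mice in diestrus (log2 fold change −0.19 with SE 0.28). Sgpp2 had 26.7 ± 9.47 CPM in FL1 mice and 40.1 ± 19.7 CPM in ctrl mice in diestrus, where ctrl replicate 1 with 7.49 CPM was the lowest of the 10 mice (log2 fold change −0.57 with SE 0.42). For these 3 genes the samples of the lines overlapped in diestrus.

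Pik3c2g had the largest line difference in diestrus among the 8 members. The FL1 mice had 17.7 ± 14.4 CPM and the ctrl mice 6.90 ± 5.49 CPM (SD, n = 5 each), 3 FL1 mice lay above all ctrl mice, and FL1 replicate 5 with 0.512 CPM lay below all of them. Its log2 fold change was 1.37 with an SE of 0.78. Ppp1r14a had 10.5 ± 6.85 CPM in FL1 mice and 7.85 ± 5.19 CPM in ctrl mice, with a log2 fold change of 0.43 (SE 0.66) that was −0.01 without FL1 diestrus replicate 1. Impa1, Impa2 and Itpk1 had log2 fold changes of 0.06, −0.33 and −0.23, with standard errors of 0.30, 0.54 and 0.49.

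Dusp23 and Inpp5d were chosen for this contrast and their values are a description. Dusp23 had 14.7, 11.2, 9.88, 17.9 and 21.7 CPM in FL1 mice in diestrus and 5.89, 0.669, 0.934, 0.363 and 4.55 CPM in ctrl mice, so that all 5 FL1 mice lay above all ctrl mice. In this contrast 1.59% of the genes tested had no overlap in one or the other direction. Inpp5d had reads in 3 of 5 FL1 mice and 1 read in 1 of 5 ctrl mice, and the mean of the FL1 mice was 4.66 ± 4.99 CPM (SD, n = 5). The summed leukocyte and macrophage markers were 8.42 to 62.3 CPM in FL1 mice in diestrus and 1.61 to 18.7 CPM in ctrl mice. In FL1 replicates 1 to 5 the marker sums were 56.1, 62.3, 8.42, 27.6 and 50.3 CPM, beside 12.01, 0, 5.995, 0 and 5.29 CPM of Inpp5d. The part of these cells in the result was not tested.

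**Figure D4:**
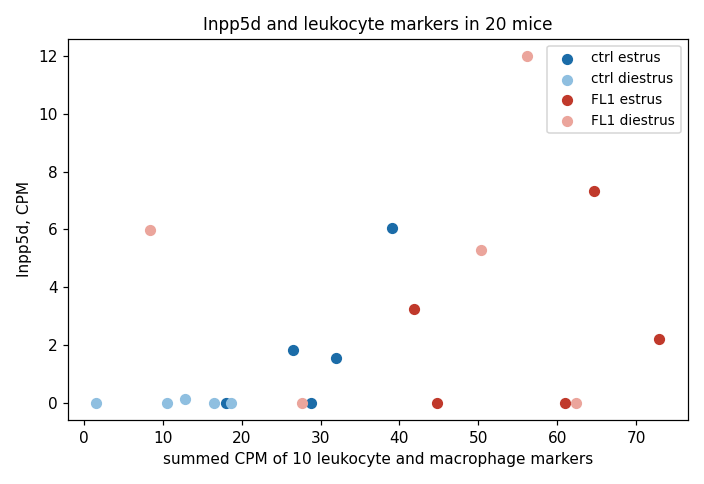
Inpp5d (vertical axis, CPM) against the summed CPM of 10 leukocyte and macrophage markers (horizontal axis) in the 20 mice, coloured by group. All 5 ctrl mice in diestrus lie at 0.133 CPM of Inpp5d or less and at 18.7 CPM of the markers or less, and mice with and without Inpp5d occur together at higher marker sums.

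The line difference in estrus is the contrast by which 6 members were chosen, and it is given without a test. In this contrast 0.769% of 13007 genes were called. The log2 fold changes of FL1 over ctrl were −2.48 for Sgpp2, −1.27 for Inpp5b, −1.07 for Isyna1, 2.51 for Pik3c2g, 3.01 for Dusp23 and 3.07 for Ppp1r14a, and none of these 6 had overlapping samples, beside 3.55% of all genes. The members not named for estrus had 0.11 for Impa1, −0.31 for Impa2, 0.64 for Itpk1 and 0.43 for Inpp5d, all with overlap. As the 6 were chosen by this contrast, their larger values and lack of overlap are in part a result of that choice. Without FL1 estrus replicate 2 the value of Itpk1 was −0.22, that of Pik3c2g 1.98 and that of Ppp1r14a 2.18. The summed level of the luteal markers was 1328 to 4109 CPM in FL1 mice in estrus and 142 to 442 CPM in ctrl mice, and all 4 are genes that the study itself lists for a line difference in one of the stages. Leukocyte and macrophage markers were also higher, at 41.8 to 72.9 CPM against 18.1 to 39.0 CPM. Surface epithelium markers were 23.7 to 76.8 CPM against 8.75 to 29.2 CPM, with overlap. The medians of theca, smooth muscle and fibroblast markers were lower in FL1 mice. The part of these markers in the values of the members was not tested.

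**Figure D5:**
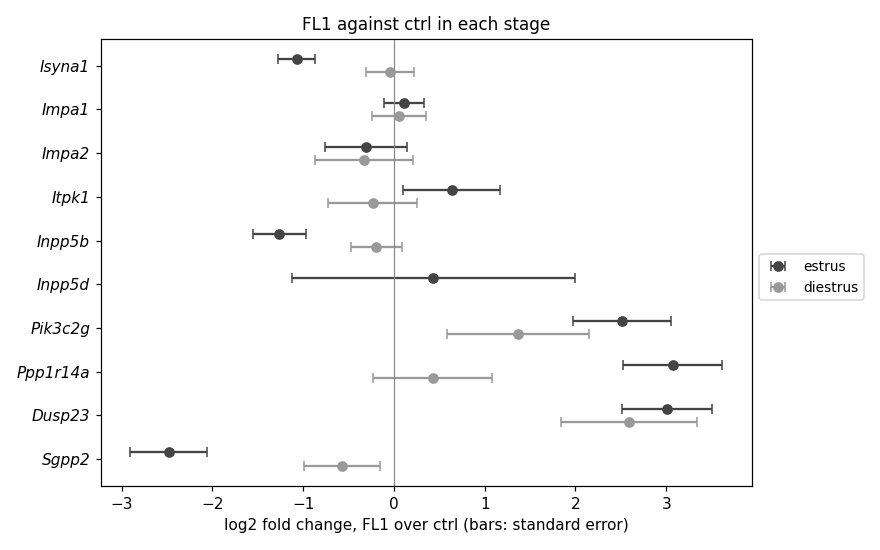
Log2 fold changes of FL1 over ctrl (horizontal axis) for each member in estrus (dark) and in diestrus (light), with bars for the standard error, and 5 mice per group. Isyna1 lies at −1.07 in estrus and −0.04 in diestrus, Ppp1r14a at 3.07 and 0.43, Dusp23 at 3.01 and 2.59, and Inpp5d has no value in diestrus because its counts were too low for the fit.

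Across the 4 groups the members had different orders of levels. Isyna1 was highest in ctrl mice in estrus, next in FL1 mice in estrus, and at 123 to 128 CPM on average in diestrus, where the lines did not differ beyond their spread. Inpp5b was likewise highest in ctrl mice in estrus (60.3 ± 9.56 CPM), and the other 3 groups, at 25.1 to 35.1 CPM on average, overlapped one another. Sgpp2 had 73.3 ± 23.8 CPM in ctrl mice in estrus, then 40.1 CPM in ctrl mice in diestrus, 26.7 CPM in FL1 mice in diestrus and 13.2 ± 7.49 CPM in FL1 mice in estrus, and each group overlapped its neighbour in this order. Ppp1r14a and Pik3c2g were highest in FL1 mice in estrus (72.6 and 87.4 CPM on average), and their other groups, at 7.85 to 10.5 CPM and 6.90 to 17.7 CPM, overlapped. Dusp23 had 29.97 CPM in FL1 mice in estrus, 15.1 CPM in FL1 mice in diestrus, and 3.71 ± 2.31 and 2.48 ± 2.55 CPM in the ctrl groups, which overlapped. For Impa1, with means of 61.4 to 74.7 CPM, Impa2, with 8.01 to 15.1 CPM, and Itpk1, with 9.41 to 20.7 CPM, all 4 groups overlapped.

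The rest of the pathway was described with 9 lists of other genes, which hold 133 genes with an entry in the annotation. Between the stages in ctrl mice 110 of them were tested, of which 2 were called higher in diestrus and 0 lower (1.82%, beside 1.36% of all genes), and the median log2 fold change was 0.05. Pik3r1 encodes the main regulatory subunit of class I phosphatidylinositol kinase. It rose from 126 ± 14.6 CPM in estrus to 246 ± 47.1 CPM in diestrus (SD, n = 5 each), and all 5 diestrus mice lay above all estrus mice (log2 fold change 0.96 with SE 0.18, edgeR adjusted p = 0.0140). Itpr1 encodes a receptor for inositol trisphosphate on calcium stores. It rose from 95.2 ± 9.75 CPM in estrus to 185 ± 51.7 CPM in diestrus (SD, n = 5 each), also without overlap (log2 fold change 0.95 with SE 0.20, edgeR adjusted p = 0.0253). The call of Pik3r1 was lost when all 20 mice were fitted together (adjusted p = 0.0719 from edgeR). That of Itpr1 was lost without ctrl estrus replicate 1, 3 or 4 or ctrl diestrus replicate 5 (adjusted p between 0.0522 and 0.0770 from edgeR). It was also lost with the replicate number as a block (adjusted p = 0.0604 from edgeR).

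None of the other list genes was called by edgeR in these contrasts. In ctrl mice the lists for inositol supply (5 genes tested), inositol phosphate kinases (9), inositol phosphate phosphatases (7), phosphoinositide phosphatases (19), protein phosphatase 1 (11), dual specificity phosphatases (15) and sphingosine phosphate (9) had 0 calls each, with median log2 fold changes between −0.18 and 0.21. Between the stages in FL1 mice 117 list genes were tested with 0 calls by edgeR. An unadjusted p under 0.05 was found for 9 of them (7.69%, beside 9.48% of all genes). In this contrast DESeq2 called 1 list gene, and 265 genes in all. There Pik3r1 had a log2 fold change of −0.01 (SE 0.31) and Itpr1 one of 0.61 (standard error 0.24, adjusted p = 0.394 from edgeR). In the interaction Pik3r1 had −0.96 and Itpr1 −0.34, and the adjusted p-values of edgeR were 0.982 and 0.9998, so a difference between the lines was not shown. Between the lines in diestrus 0 list genes were called by edgeR and by DESeq2, and 5 had an unadjusted p under 0.05 (4.42%, beside 5.56% of all genes).

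The genes whose log2 CPM followed each member most closely over the 20 mice were found among 14938 genes and are given as a description, since all values share libraries and groups. Isyna1 was most like Kctd14 (Pearson r = 0.91) and Pgbd5 (0.87), Pik3c2g like Arpc1b (0.90) and Avpi1 (0.86), and Ppp1r14a like Fdx1 (0.91) and Timp3 (0.89). Sgpp2 was most like Dkkl1 (0.84) and Trim59 (0.83), Dusp23 like Hoxd4 (0.85) and Rnf208 (0.84), and Inpp5b like Ccl27a (0.83). Impa1 was most like Gnl3l (0.81) and Pnck (0.77), Itpk1 like Phyhipl (0.80) and Pcyox1 (0.77), Impa2 like Anp32a (0.75) and Pacsin2 (0.75), and Inpp5d like BC031181 (0.75) and Cacng7 (0.71). After the group means had been taken off, r was 0.37 for Dusp23 with Rnf208, 0.49 for Isyna1 with Kctd14 and 0.76 for Ppp1r14a with Fdx1. For Itpk1 with Pcyox1 r was 0.57 without FL1 estrus replicate 2. Among the members themselves, Pik3c2g and Ppp1r14a had the highest r, 0.63 over the 20 mice and 0.19 within groups.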

How the data were processed

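GC samples of 20 mice were analysed, with 5 per line and stage. The authors trimmed the reads, aligned them to GRCm38 with STAR and deposited unnormalized counts per Ensembl gene. The strand setting of the counting is not given in the sources used here. Reads with several matches (23.2% to 32.8%) are not in these counts. The members and lists were chosen with earlier results of these data known.

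Symbols and positions come from GENCODE M21, which had 55227 of 55487 identifiers. Groups were taken from the labels. Each contrast was fitted to its 10 samples with edgeR 4.0.16 in R 4.3.3 (TMM normalization, filterByExpr with a minimum count of 10, a total of 15 and a share of 0.7, quasi-likelihood F test, Benjamini-Hochberg adjustment, threshold 0.05), and the interaction to all 20. CPM uses TMM over all samples, and log2 CPM has a prior count of 2. For a gene below the filter an exact permutation test was used. Bounds are computed against 3 counts per library and cover counting error only. To find near-identical copies, transcript ends of 500 nt were compared by BLAST 2.17.0 (identity of 90% or more, length of 100 nt or more). Scripts were tested on simulated data.

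Named were all 10 members, the called genes of the lists (at most 3 per list and direction), and the 2 genes most like each member (1 of these genes is not reported here). Alternatives were DESeq2 1.42.0, RLE size factors, no filter, robust estimation, the replicate number as a block, all samples in one fit, a prior count of 0.5 and each sample left out. Same-numbered mice of 2 groups had correlations of their deviations between −0.116 and 0.117. This gave no sign that the replicate numbers pair the mice, but low correlations cannot exclude a pairing. RefSeq promoters (GRCm38.p6) were found for 8 of the 10 members.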

Additional observations from a re-analysis of the deposited data

Results flagged for a closer look

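In 5 of 40 sets of 5 mice, 1 for each member and group, the highest mouse stood apart from the other mice by Dixon's criterion (its gap to the next mouse over the range of the group). This criterion assumes normal values and separate sets. The CPM here are skewed and sets share mice, so the count is not set against a chance rate. FL1 estrus replicate 2 was the mouse in 3 of the 5 sets, with 57.7 CPM of Itpk1 (next mouse 14.03 CPM), 195 CPM of Pik3c2g (next 81.5 CPM) and 206 CPM of Ppp1r14a (next 67.5 CPM). Without this mouse the means of the FL1 estrus group were 11.4 ± 2.98 CPM for Itpk1, 60.6 ± 18.8 CPM for Pik3c2g and 39.1 ± 20.5 CPM for Ppp1r14a (SD, n = 4). FL1 diestrus replicate 2 had 14.7 CPM of Itpk1, where the next mouse had 8.86 CPM. For Inpp5d in ctrl mice in diestrus the highest value, 0.133 CPM in replicate 3, is 1 read, while the other 4 mice had 0.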

How the results depend on the processing

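The stage effect of Isyna1 in ctrl mice was called under all 16 alternatives, with log2 fold changes between −1.85 and −1.60 and adjusted p-values between 1.69e-13 and 0.00294, and the count of members called there was 1 in each. For the members and the named list genes, 281 values of single genes kept direction and call when a setting other than the samples was changed (or, where no test was made, moved by less than the spread between mice), 6 gained a call, 2 lost it and 1 turned its direction. The cause of the changes below was not tested.

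Over all genes, calls in the ctrl stage contrast were 175, and 526 with DESeq2 and 348 without the filter. In the FL1 stage contrast they were 29, and 265 with DESeq2, 299 without the filter and 65 with all samples in one fit. Between the lines they were 32 in diestrus, with 118 by DESeq2 and 3.34 times as many without the filter, and 100 in estrus, with 425 and 373. In the interaction they were 0, with 1 by DESeq2 and 6 without the filter. Of the members in the FL1 stage contrast, DESeq2 called 1 (Ppp1r14a), all samples in one fit 1 (Ppp1r14a) and no filter 2 (Ppp1r14a and Pik3c2g). List genes called in the ctrl stage contrast were 5 with DESeq2 and 4 without the filter, and in the FL1 stage contrast 1 with either.

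The replicate number as a block gave 13 calls between the lines in diestrus, 58 in estrus, 2 members in the FL1 stage contrast (Ppp1r14a and Pik3c2g) and 1 list gene in each stage contrast. Under the block the exact p of Inpp5d in ctrl mice was 0.25 (smallest 0.0625), and the interaction of Impa2 was 0.11 on the log2 scale. No pairing by replicate number was found, so these are given as values of another fit only.

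With 1 mouse left out, calls over all genes were 77 (without ctrl diestrus replicate 5) to 176 in the ctrl stage contrast, with 88, 91 and 100 without ctrl estrus replicates 2, 3 and 4, and also lower by over 1.5 times without ctrl diestrus replicate 3. In the FL1 stage contrast they were 13 (without diestrus replicate 3) to 178 (without diestrus replicate 1), with 18, 14 and 14 without diestrus replicates 2, 4 and 5. Between the lines they were 21 (without FL1 diestrus replicate 4) to 32 in diestrus and 66 (without FL1 estrus replicate 1) to 130 in estrus. Members called in the FL1 stage contrast were 0 to 1, with Ppp1r14a called without estrus replicate 3 or 4 or diestrus replicate 1, and list genes called in the ctrl stage contrast 1 to 2. The difference of Inpp5d in ctrl mice ranged from −2.36 to −1.26.

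Of the tested values of the members, 8 turned direction with 1 mouse left out, none of them called. These were the ctrl stage effects of Itpk1 (−0.39 to 0.033) and Ppp1r14a (−0.42 to 0.13), the diestrus line effects of Isyna1 (−0.22 to 0.079), Impa1 (−0.10 to 0.30) and Ppp1r14a (−0.0061 to 0.71), and the interactions of Impa1 (−0.21 to 0.19), Impa2 (−0.21 to 0.23) and Dusp23 (−0.71 to 0.16). The estrus line values, which have no test, turned for Itpk1 (0.64, and −0.22 without FL1 estrus replicate 2) and Inpp5d (0.43, and −0.45 without FL1 estrus replicate 3). Genes with few reads, Inpp5d above all, allow no statement on small differences at this depth.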
